A study of Mus musculus with 7 samples.

Results

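The genes described here are 10 imprinted genes that act in growth control: the long non-coding RNAs H19, Meg3, Rian and Mirg and the protein-coding genes Dlk1, Peg3, Plagl1, Cdkn1c, Grb10 and Mest. They were taken by gene symbol after the transcripts of the files had been assigned to mouse genes, and all 10 were found among 44818 features. All 10 also passed the filter on low counts that kept 16028 features, called genes below. RNA had been sequenced from hindlimb tendon of mice of C57BL/6 background in a study of TAK1, a kinase activated by TGF-β, in tissue that forms bone outside the skeleton after injury. Injured mice had received a cut through the Achilles tendon of the left leg together with a back scald covering 30% of their surface, made by 18 s of contact with heated aluminium (60 °C). The tenotomy group has 2 libraries from the cut left leg, taken 3 weeks later. The contralateral group has 3 libraries from the uncut right leg of such mice at the same time, so that these animals carry the burn too. The uninjured group has 2 libraries from wild-type mice with neither burn nor cut. The labels give neither age nor sex, and they do not say which legs came from the same mouse or whether animals were pooled.

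In mammals an imprinted gene is expressed mainly from the allele of one parent, through DNA methylation laid down in the egg or the sperm. Imprinted genes lie in clusters that share a control region, and many act on fetal growth and fall in expression after birth. In the cluster on mouse chromosome 12, Dlk1 and Rtl1 are read from the paternal allele, and Meg3, Rian and Mirg from the maternal allele. H19, read from the maternal allele, lies beside the growth factor gene Igf2 and shares enhancers with it. The counts used here do not tell the parental alleles apart, so they give the amount of RNA and not its parental origin.

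Library totals ran from 25927171 to 36725106 estimated counts, of which 5 features (Gm42418, Lars2, Mir6236, mt-Rnr2 and a transcript without an assigned gene) took 76.4% to 81.4%. That left 4934057 to 8375626 counts for all other features. The tendon label was compared with 14 tendon fibroblast genes, of which none was at 0 in any group. Their summed level was 1214 to 1621 CPM (counts scaled to a common library total) in the contralateral group, 7202 to 7208 CPM in the tenotomy group and 4546 to 6567 CPM in the uninjured group. Genes of skeletal muscle fibres reached 26116 to 29085, 2297 to 2313 and 2926 to 19681 CPM, so in the contralateral libraries the muscle list summed higher than the tendon list. The 2 uninjured libraries stood apart from each other. Uninjured replicate 1 had 2926 CPM of the muscle list and 158.1 CPM of 13 macrophage and leukocyte genes, close to the tenotomy libraries, and uninjured replicate 2 had 19681 and 41.1 CPM, close to the contralateral ones. The fold changes of the 10 genes against the uninjured group are therefore also given without each of its libraries. In such bulk samples, fewer cells of a type and less RNA per cell cannot be told apart.

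The sequences that bear on these genes are of 2 kinds, the starts of the genes and the microRNAs that lie inside them. RefSeq (GRCm38.p6) gave a window of 250 bases before a start for 8 of the 10 genes. The windows below belong to the annotated start of Meg3 and to RefSeq starts of the protein-coding genes Plagl1, Grb10, Mest and Peg3. Plagl1, Grb10 and Mest rose at the tenotomy site, and Peg3 did not pass the test. For these protein-coding genes the starts lie at or near the ones that carry most of their counts. The main transcript of Plagl1, Plagl1-202, starts inside its window, so the last bases of that window lie after its start. Capitals mark 3 motifs, searched on both strands: the cAMP response element TGACGTCA, the TATA box TATAAA and the GC box GGGCGG.
Meg3, chr12:109540746-109540995, plus strand: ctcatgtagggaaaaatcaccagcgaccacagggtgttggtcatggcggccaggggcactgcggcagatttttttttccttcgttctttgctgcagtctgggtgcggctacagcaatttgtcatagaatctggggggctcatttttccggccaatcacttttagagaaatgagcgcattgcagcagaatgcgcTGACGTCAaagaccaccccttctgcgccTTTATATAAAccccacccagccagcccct
Plagl1, chr10:13090582-13090831, plus strand: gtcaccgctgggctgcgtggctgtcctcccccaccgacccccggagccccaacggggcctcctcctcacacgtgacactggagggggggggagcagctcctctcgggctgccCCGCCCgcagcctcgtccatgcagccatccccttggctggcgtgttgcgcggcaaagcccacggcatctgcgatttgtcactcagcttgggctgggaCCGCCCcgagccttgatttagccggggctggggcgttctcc
Grb10, chr11:12037421-12037670, minus strand: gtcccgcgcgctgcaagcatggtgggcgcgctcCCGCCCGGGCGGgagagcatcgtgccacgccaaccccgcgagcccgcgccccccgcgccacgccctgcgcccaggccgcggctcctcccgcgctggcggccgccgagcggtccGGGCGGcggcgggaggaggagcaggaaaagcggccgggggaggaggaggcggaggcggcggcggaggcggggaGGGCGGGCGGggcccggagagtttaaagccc
Mest, chr6:30737800-30738049, plus strand: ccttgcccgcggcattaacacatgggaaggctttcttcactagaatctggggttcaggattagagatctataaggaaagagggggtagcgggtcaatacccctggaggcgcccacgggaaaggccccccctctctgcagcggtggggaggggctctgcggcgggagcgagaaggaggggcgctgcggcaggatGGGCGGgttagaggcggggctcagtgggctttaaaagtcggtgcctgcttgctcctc
Peg3, chr7:6730420-6730669, minus strand: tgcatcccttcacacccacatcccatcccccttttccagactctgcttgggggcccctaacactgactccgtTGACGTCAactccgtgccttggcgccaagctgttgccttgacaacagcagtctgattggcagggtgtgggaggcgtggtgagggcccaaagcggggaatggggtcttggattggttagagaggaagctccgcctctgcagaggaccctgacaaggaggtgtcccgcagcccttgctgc
The Meg3 window holds 1 cAMP response element, which begins 57 bases before the start, and 2 overlapping TATA matches, 1 on each strand, and the Peg3 window holds 1 cAMP response element. Transcripts from this Meg3 start carried 39.0% to 50.9% of Meg3 counts in the 7 libraries, and Meg3-209, which begins 4397 bases further on, carried 35.1% to 46.1%. The window before Meg3-209 holds none of the 3 motifs. Of 32851 windows of this length, 1.55% hold TGACGTCA, 12.4% hold TATAAA and 32.7% hold GGGCGG. The Grb10 window has 5 GC boxes and 40 CpG dinucleotides, the Plagl1 window 2 GC boxes and 19 CpG, and the Mest window 1 GC box and 14 CpG, against a median of 6 CpG over all windows. These matches describe the letters of the windows and are not evidence of binding.

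The non-coding genes and Mest are also hosts of microRNAs, small RNAs that find their targets mainly through the seed, bases 2 to 8. RefSeq places 20 hairpins inside the 10 genes: 14 in Mirg, 3 in Rian and 1 each in H19, Meg3 and Mest. Of these, the hairpins of H19 and Meg3 and 4 of those in Mirg overlap an exon. The 38 mature sequences have 37 different seeds. Shown are a sequence from each host and the pair that shares a seed, with the seed in capitals.
miR-675-5p (H19, exon, chr7:142577112-142577133): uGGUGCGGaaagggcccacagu
miR-770-5p (Meg3, exon, chr12:109563710-109563731): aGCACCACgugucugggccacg
miR-370-3p (Rian, chr12:109618305-109618326): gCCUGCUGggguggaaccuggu
miR-410-3p (Mirg, exon, chr12:109743764-109743784): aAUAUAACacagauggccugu
miR-453 (Mirg, chr12:109735669-109735692): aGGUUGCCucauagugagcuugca
miR-496a-5p (Mirg, chr12:109739132-109739152): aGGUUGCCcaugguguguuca
miR-335-5p (Mest, chr6:30741314-30741336): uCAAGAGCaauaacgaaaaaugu
miR-453 and miR-496a-5p share the seed GGUUGCC. Mature microRNAs were not measured in these libraries. The files hold 81 annotated miRNA and snoRNA features between Dlk1 and Mirg, none of which passed the filter, and the highest had 8 counts in a library. Their summed counts were 9 to 15 in the contralateral, 90 and 64 in the tenotomy, and 57 and 34 in the uninjured libraries. The results below therefore concern the host transcripts.

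At the tenotomy site, 7 of the 10 genes were higher than in the contralateral leg and none was lower by edgeR's quasi-likelihood test with Benjamini-Hochberg adjustment (adjusted p under 0.05). The 7 were Meg3, Rian, Mirg, Plagl1, Cdkn1c, Grb10 and Mest, with log2 fold changes of 1.11 to 2.85. Of all 16028 genes, 29% were called in this comparison, 13.6% as higher and 15.4% as lower. The median log2 fold change of the 10 genes was 1.94, and that of all genes was −0.0012. Dlk1, Peg3 and H19 did not pass. In 8 genes, the 7 and Peg3, both tenotomy values were above every contralateral value, as in 31.9% of all genes, and in 1, H19, both were below, as in 31.8%. Leaving out any contralateral or tenotomy library from the fit of 7 libraries ended each of these calls, as it did those of all other genes, with adjusted p of up to 0.124 for the 7. Without uninjured replicate 1 or 2 the 7 genes and H19 were called, when 42.9% and 43.5% of all genes were. The same 8 were called with only the 2 groups compared in the fit, when 46.1% of all genes were called, 22.1% as higher. A check added after the data had been seen left libraries out of that smaller fit. The 8 calls held without each contralateral library in turn, when 41.2% to 48.4% of all genes were called. Without any 1 library of either group, the log2 fold changes there ran from −1.27 to −1.14 for H19 and from 0.987 to 3.08 for the 7.

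**Figure D1:**
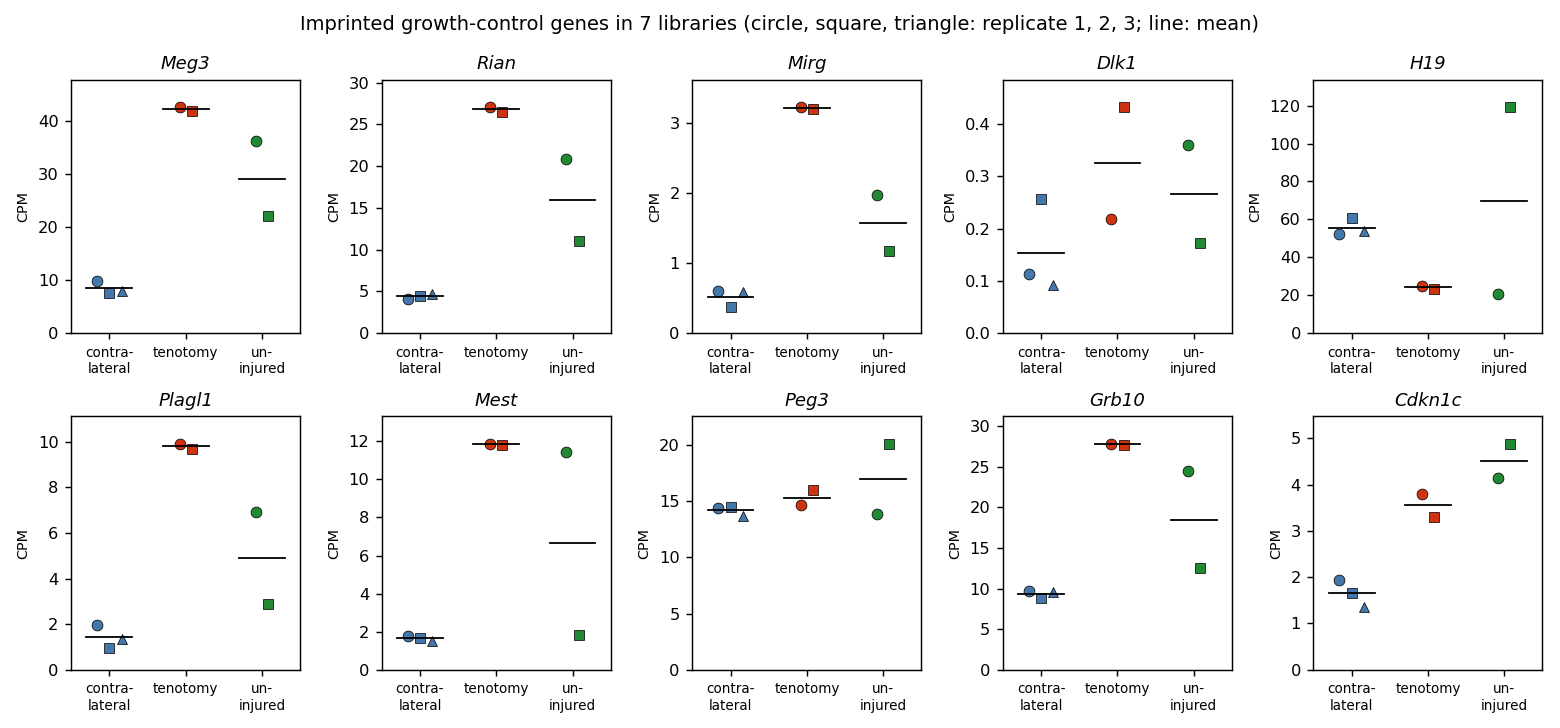
Expression of the 10 genes in each library, in CPM on a linear axis that starts at 0 in each panel. Points are libraries, with the symbol giving the replicate number, and the line is the group mean. Meg3, Rian, Mirg, Plagl1, Grb10 and Mest are highest in the 2 tenotomy libraries, and H19 is highest in uninjured replicate 2 (119.4 CPM).

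Meg3 is a nuclear long non-coding RNA that is lost in many tumours. It measured 9.82, 7.63 and 8.01 CPM in the contralateral libraries, 42.7 and 42.0 CPM in the tenotomy libraries, and 36.3 and 22.0 CPM in the uninjured libraries. The tenotomy and contralateral values do not overlap, and both uninjured values lie between them. The log2 fold change from contralateral to tenotomy was 2.32 (SE 0.239, adjusted p = 0.0152). Rian, which hosts C/D box small nucleolar RNAs and microRNAs, followed the same order, with 4.12, 4.44 and 4.70 CPM contralateral, 27.1 and 26.5 CPM at the tenotomy and 20.8 and 11.0 CPM uninjured. Its log2 fold change was 2.60 (SE 0.257, adjusted p = 0.0152). Mirg, the microRNA host that lies beyond Rian in the cluster, was lower in level. It measured 0.600, 0.370 and 0.588 CPM contralateral, 3.24 and 3.20 CPM at the tenotomy and 1.98 and 1.17 CPM uninjured. The contralateral Mirg values rest on 13 to 19 counts. Its log2 fold change was 2.64 (SE 0.281, adjusted p = 0.0162). Rian had 0.420 to 0.587 counts per Meg3 count in the contralateral libraries, 0.634 and 0.631 at the tenotomy and 0.573 and 0.502 uninjured. Mirg had 0.0485 to 0.0734 counts per Meg3 count contralateral, 0.0757 and 0.0762 at the tenotomy and 0.0544 and 0.0531 uninjured. Both ratios were highest in the tenotomy libraries.

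Dlk1, a paternally expressed gene of the same cluster, encodes a Notch-like membrane protein that restrains adipocyte formation. It was near the limit of detection, with 3, 9 and 3 counts in the contralateral, 8 and 13 in the tenotomy and 10 and 5 in the uninjured libraries. The groups overlap. The log2 fold change was 1.00 (SE 0.616, adjusted p = 0.253), so a difference was not detectable at this depth. With these counts Dlk1 was also the lowest of the 10 genes in every group.

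The span from Dlk1 to Mirg, 296.6 kb on chromosome 12 of GRCm38, holds 8 features that were tested. Of these, 7 were higher at the tenotomy site than in the contralateral leg: Meg3, Rtl1, Rian, Gm26945, Gm37899, B830012L14Rik and Mirg. Among all genes, 13.6% were called higher. Gm26945 lies within Rian on the same strand and had 2, 5 and 4 counts in the contralateral libraries, so it is not separate from Rian. All features of the span were looked at, whatever their values. Rtl1, a retrotransposon-derived gene expressed in placenta and fetal muscle, measured 0.937, 0.911 and 0.680 CPM contralateral, 3.59 and 4.33 CPM at the tenotomy and 2.73 and 1.96 CPM uninjured, a log2 fold change of 2.23 (SE 0.220, adjusted p = 0.0152). Rtl1 lies on the minus strand, opposite a maternal antisense transcript, and the labels do not say whether strand was used in counting. Reads of the 2 cannot be told apart. Gm37899, an unclassified locus between Rian and Mirg, had a log2 fold change of 2.50 (SE 0.307) and B830012L14Rik, a long intergenic RNA, 1.33 (SE 0.261). Outside the span, 10 features within 1000 kb of the Meg3 start were tested, and 1 of them was higher (Evl) and 1 lower (Wars). The median log2 fold change was 2.41 inside the span and −0.13 outside it. The value inside includes Dlk1, Meg3, Rian and Mirg, which were chosen with earlier results of these data known.

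**Figure D2:**
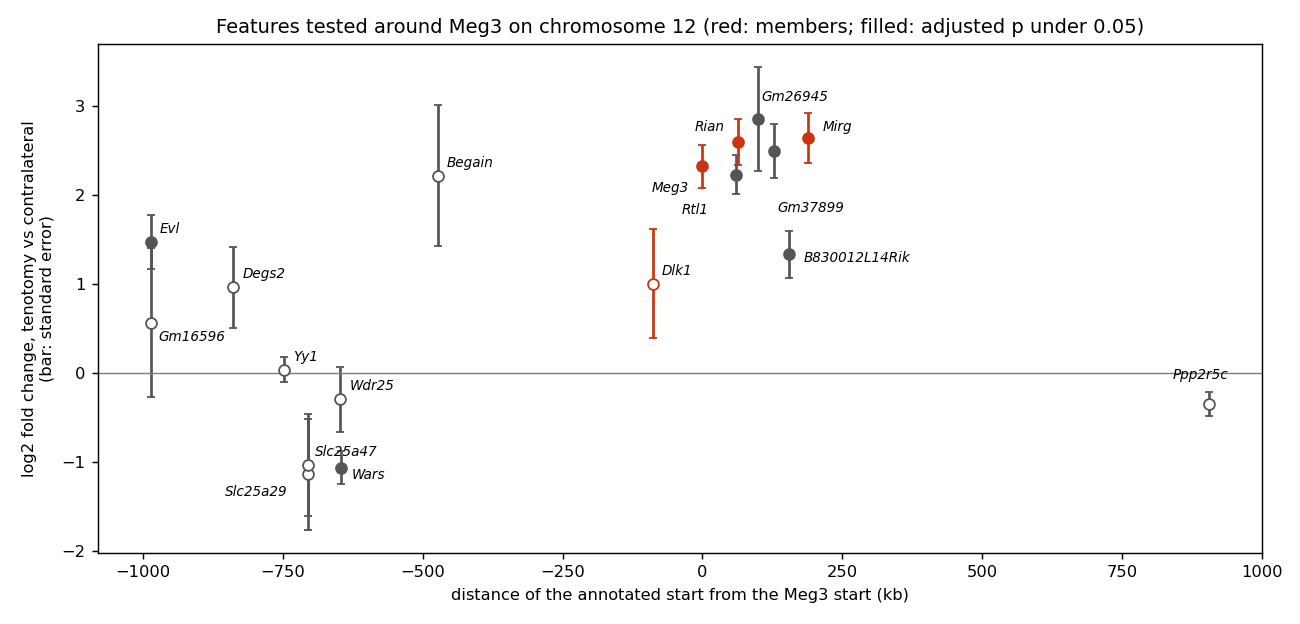
Log2 fold change from contralateral to tenotomy of every tested feature within 1000 kb of Meg3, against the distance of its annotated start from the Meg3 start in kb. Bars are standard errors, red points belong to the 10 genes, and filled points have an adjusted p under 0.05. The features from Meg3 to Mirg lie between 1.33 and 2.85. The features outside the span from Dlk1 to Mirg run from −1.14 (Slc25a29) to 2.22 (Begain), neither past the threshold. Of them only Evl (1.47) and Wars (−1.07) are filled.

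Plagl1 and Mest, both paternally expressed, had the largest log2 fold changes of the 10 genes. Plagl1 encodes a zinc finger transcription factor that can arrest the cell cycle and that acts on other imprinted genes. It measured 1.95, 0.968 and 1.36 CPM contralateral, 9.93 and 9.70 CPM at the tenotomy and 6.93 and 2.89 CPM uninjured. The 3 groups do not overlap. Its log2 fold change was 2.80 (SE 0.384, adjusted p = 0.0167). Transcript Plagl1-202 carried 72.0% to 91.2% of its counts in each library. It starts at base 13090788, inside the window printed above, so the later of the 2 GC boxes there lies after this start. Mest encodes a hydrolase-fold protein linked to growth of mesodermal tissue and fat. It measured 1.76, 1.65 and 1.52 CPM contralateral and 11.9 and 11.8 CPM at the tenotomy, a log2 fold change of 2.85 (SE 0.606, adjusted p = 0.0174). In the uninjured group it measured 11.5 CPM in replicate 1 and 1.82 CPM in replicate 2, as high as the tenotomy libraries in the former and near the contralateral libraries in the latter. No other gene of the 10 split the uninjured libraries as widely (2.61 in log2 CPM), and H19 split them by nearly as much in the other direction (−2.55). Transcript Mest-211, whose start is the one shown, carried 84.3% to 98.7% of Mest counts.

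Cdkn1c and Grb10 are growth inhibitors read mainly from the maternal allele. Cdkn1c encodes p57, an inhibitor of cyclin-dependent kinases. It measured 1.95, 1.65 and 1.36 CPM contralateral, 3.81 and 3.30 CPM at the tenotomy and 4.13 and 4.89 CPM uninjured, so that the 2 uninjured libraries were the highest. Its log2 fold change from contralateral to tenotomy was 1.11 (SE 0.190, adjusted p = 0.0167), the smallest of the 7. Grb10 encodes an adaptor protein that damps insulin and IGF receptor signalling. It measured 9.74, 8.82 and 9.62 CPM contralateral, 27.9 and 27.7 CPM at the tenotomy and 24.4 and 12.6 CPM uninjured. Its log2 fold change was 1.56 (SE 0.260, adjusted p = 0.0167).

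Grb10 is read from more than one start, and the estimated counts of its transcripts moved unequally. Grb10-201, with its start at the GC-rich window above, had 6.50, 6.20 and 7.16 CPM contralateral, 24.3 and 23.2 CPM at the tenotomy and 17.6 and 8.81 CPM uninjured. Grb10-203 begins 10712 bases into the annotated gene, against 1282 bases for Grb10-201, and had 1.94, 1.62 and 1.47 CPM contralateral, 1.33 and 1.49 CPM at the tenotomy and 3.86 and 2.56 CPM uninjured. Grb10-201 thus made up 66.7% to 74.5% of Grb10 counts in the contralateral libraries, 87.0% and 83.8% at the tenotomy and 72.2% and 70.0% uninjured. For Grb10-203 the contralateral and tenotomy values overlap and both uninjured values are above them. The split of reads between transcripts is an estimate, its error is not given in the files used here, and it was not tested.

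Peg3, a paternally expressed zinc finger gene of growth and maternal behaviour, gave close values in the contralateral and tenotomy groups. It measured 14.4, 14.5 and 13.7 CPM contralateral, 14.7 and 16.0 CPM at the tenotomy and 13.9 and 20.1 CPM uninjured. The tenotomy values are just above the contralateral ones. The log2 fold change was 0.11 (SE 0.187, adjusted p = 0.695), and with counts scaled by transcript length it was −0.05. The full-length transcript Peg3-201 measured 11.2, 11.7 and 11.2 CPM contralateral against 13.1 and 13.8 CPM at the tenotomy. Peg3-204, annotated with a retained intron, measured 3.10, 2.68 and 2.45 against 1.54 and 2.19 CPM. The values of each transcript do not overlap between the 2 groups, and they lie in opposite directions. Summed per gene, 31.9% of all genes were without overlap as higher and 31.8% as lower, and no such share was computed for transcripts. As for Grb10, the split of reads between transcripts is an estimate and was not tested.

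**Figure D3:**
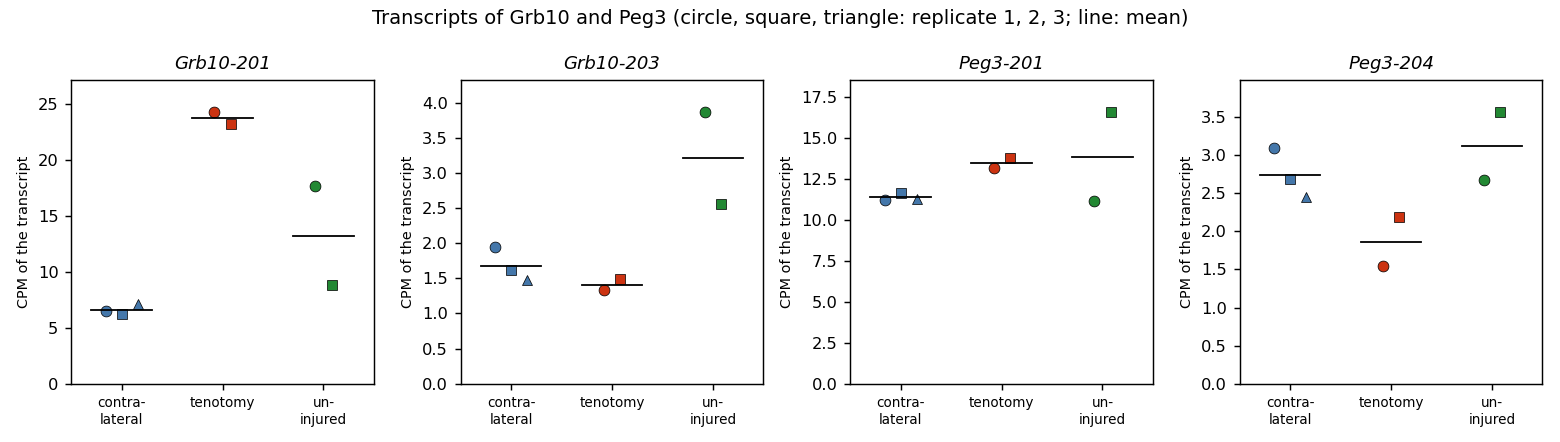
Estimated CPM of 2 transcripts each of Grb10 and Peg3 in the 7 libraries, on linear axes from 0. Points are libraries, with the symbol giving the replicate number, and the line is the group mean. Grb10-201 is highest at the tenotomy (23.2 and 24.3 CPM), whereas Grb10-203 is highest in the uninjured libraries (3.86 and 2.56 CPM).

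H19 was the only gene of the 10 that was lower at the tenotomy site than in every contralateral library. Its RNA is abundant in fetal tissue and adult muscle and is the precursor of miR-675. H19 measured 52.4, 60.6 and 53.7 CPM contralateral, 25.1 and 23.1 CPM at the tenotomy, and 20.4 and 119.4 CPM in uninjured replicates 1 and 2. The tenotomy and contralateral values do not overlap, and the uninjured libraries hold both the lowest and the highest value of the series. The log2 fold change was −1.21 (SE 0.613, adjusted p = 0.173) in the fit of all libraries. With the 2 groups alone it was −1.21 (SE 0.103, adjusted p = 1.36e-06), a fit in which 24.1% of all genes were called lower. H19-202 carried at least 93.2% of H19 counts in each library.

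Marker lists of muscle, fat and Schwann cells were set beside H19. All 24 muscle fibre genes were lower at the tenotomy site by the test, with log2 fold changes of −4.72 (Myh2) to −2.52 (Actn3), and the summed level per library was given above. The summed level of 8 Schwann cell genes was 146.2 to 163.9 CPM contralateral, 103.1 and 104.7 CPM at the tenotomy, and 71.9 and 240.9 CPM in uninjured replicates 1 and 2, so that this list, like H19, was highest in uninjured replicate 2 and lowest in uninjured replicate 1. Of these 8 genes 2 were higher by the test at the tenotomy and none was lower. In 4 of them both tenotomy values were above every contralateral value and in 4 both were below (31.9% and 31.8% of all genes). Their median log2 fold change was 0.006, so the lower sum does not hold gene by gene. The summed level of 8 adipocyte genes was 362.1 to 467.4 CPM contralateral, 136.5 and 134.2 CPM at the tenotomy, and 138.5 and 372.4 CPM in uninjured replicates 1 and 2, and 5 of the 8 were lower at the tenotomy by the test. For 11 genes of regenerating muscle and muscle stem cells the sums were 6.80 to 8.58, 1.99 and 2.33, and 2.69 and 8.19 CPM, and of the 7 tested 2 were lower and 1 higher. In their sums all 4 lists, like H19, were lower at the tenotomy than in the contralateral leg and higher in uninjured replicate 2 than in replicate 1. No marker on these lists was at 0 in a group except Mymx in the uninjured group. Their part in the H19 values was not tested. Igf2, the insulin-like growth factor gene 88.7 kb from H19, shared this order only in part. It was higher at the tenotomy than in the contralateral leg, but like H19 it was highest in uninjured replicate 2. Igf2 measured 4.68, 4.18 and 3.77 CPM contralateral, 6.88 and 5.87 CPM at the tenotomy, and 6.07 and 9.81 CPM in uninjured replicates 1 and 2. Its log2 fold change was 0.60 (SE 0.222, adjusted p = 0.0780). With the 2 groups alone it was 0.60 (SE 0.132, adjusted p = 0.00264) and passed the test, as under 10 of 24 alternative settings in all. H19 had 11.2 to 14.5 counts per Igf2 count in the contralateral libraries, 3.64 and 3.93 at the tenotomy, and 3.36 and 12.2 in uninjured replicates 1 and 2.

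**Figure D4:**
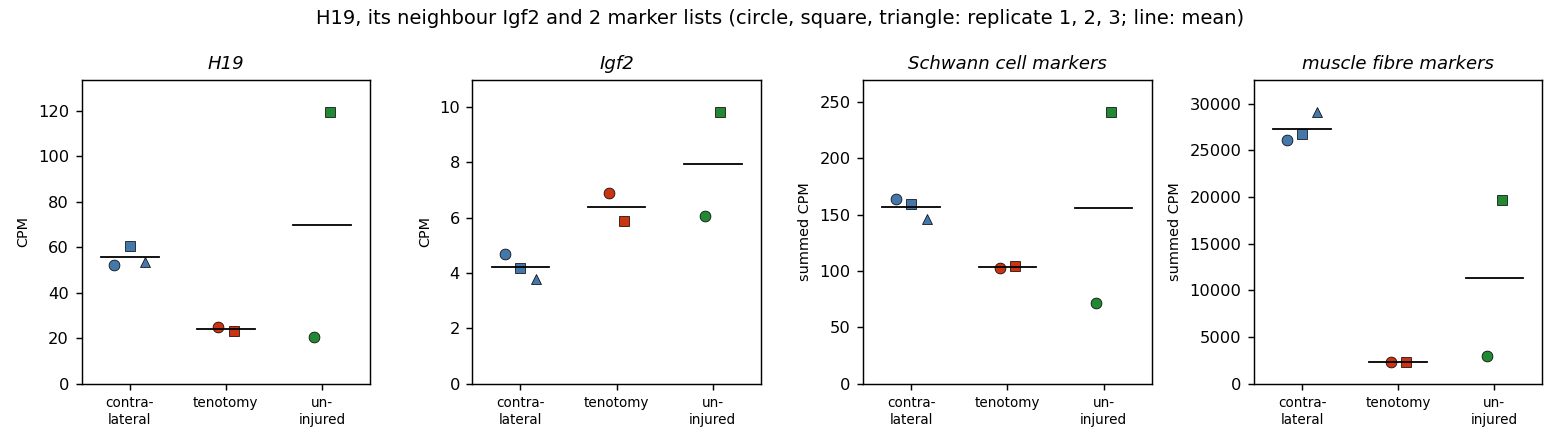
H19 and Igf2 in CPM, and the summed CPM of 8 Schwann cell and 24 muscle fibre markers, in each library on linear axes from 0. Points are libraries, with the symbol giving the replicate number, and the line is the group mean. H19 and the sums of both lists are lower at the tenotomy than in the contralateral leg and are far apart in the 2 uninjured libraries. Of the 8 Schwann cell genes taken singly, 4 are lower and 4 higher at the tenotomy. Igf2 is higher at the tenotomy than in the contralateral leg.

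Within 1000 kb of H19 on chromosome 7, 25 features were tested from contralateral to tenotomy, of which 4 were higher and 7 lower. Among all genes, 13.6% were called higher and 15.4% lower. The 25 include H19 itself, which did not pass, and Cdkn1c, 882.9 kb away, which is 1 of the 4. The muscle troponin genes Tnni2 and Tnnt3, which are on the muscle list, were lowest, with log2 fold changes of −3.45 (SE 0.765) and −3.40 (SE 0.758). Nctc1, a non-coding gene 19.5 kb from H19 in the region of the muscle enhancer, had 16.5, 20.5 and 19.7 CPM contralateral against 3.37 and 3.77 CPM at the tenotomy, a log2 fold change of −2.40 (SE 0.483, adjusted p = 0.0167). The leukocyte gene Lsp1 was the highest, at 1.95 (SE 0.391). The median over the window was −0.05.

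Markers of several cell types rose at the tenotomy together with the 7 genes. Of 14 tendon fibroblast genes 9 rose and none fell, up to a log2 fold change of 3.85 for the small proteoglycan Lum. Of 13 macrophage and leukocyte genes 12 rose, and their summed level was 32.2 to 43.0 CPM contralateral against 156.4 and 159.6 CPM at the tenotomy. Of 13 tested chondrocyte genes 9 rose and 1 fell, with sums of 57.8 to 84.6 against 468.2 and 467.6 CPM. In uninjured replicates 1 and 2 the chondrocyte list summed to 243.6 and 85.3 CPM. Matn1, a defining cartilage gene, did not pass the filter and was not tested. It was at 0 in the contralateral and uninjured groups. Of 6 tested proliferation genes 5 rose, with sums of 3.22 to 3.49 against 15.0 and 13.8 CPM. The proliferation list summed to 12.0 and 2.82 CPM in uninjured replicates 1 and 2. The part of these cell types in the imprinted genes was not tested.

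No gene of the 10 passed the test between the tenotomy and the uninjured group, where 0% of all genes were called, 10.9% had an unadjusted p under 0.05 and DESeq2 called 0.905%. The log2 fold changes ran from −1.54 (H19, SE 0.660) to 1.03 (Mirg, SE 0.283, adjusted p = 0.450), with a median of 0.56 against −0.01 for all genes. Of the 10 genes, 6 had both tenotomy values above both uninjured ones (20.1% of all genes) and 1, Cdkn1c, had both below (20.4%). The values turned on which uninjured library was kept. A fit that keeps 1 of them assumes that it varies like the other groups, so its calls do not include the spread between the uninjured libraries. Without uninjured replicate 1, 8 genes were called, when 25.1% of all genes were. Meg3 (0.95), Rian (1.28), Mirg (1.46), Plagl1 (1.77), Grb10 (1.15) and Mest (2.70) were then higher and H19 (−2.30) and Peg3 (−0.39) lower at the tenotomy. Cdkn1c (−0.45) and Dlk1 (0.88) did not pass. Without uninjured replicate 2, none of the 10 was called, when 0.083% of all genes were. The same log2 fold changes were then 0.22 for Meg3, 0.37 for Rian, 0.71 for Mirg, 0.50 for Plagl1, 0.19 for Grb10, 0.05 for Mest, 0.24 for H19, 0.145 for Peg3, −0.21 for Cdkn1c and −0.17 for Dlk1.

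**Figure D5:**
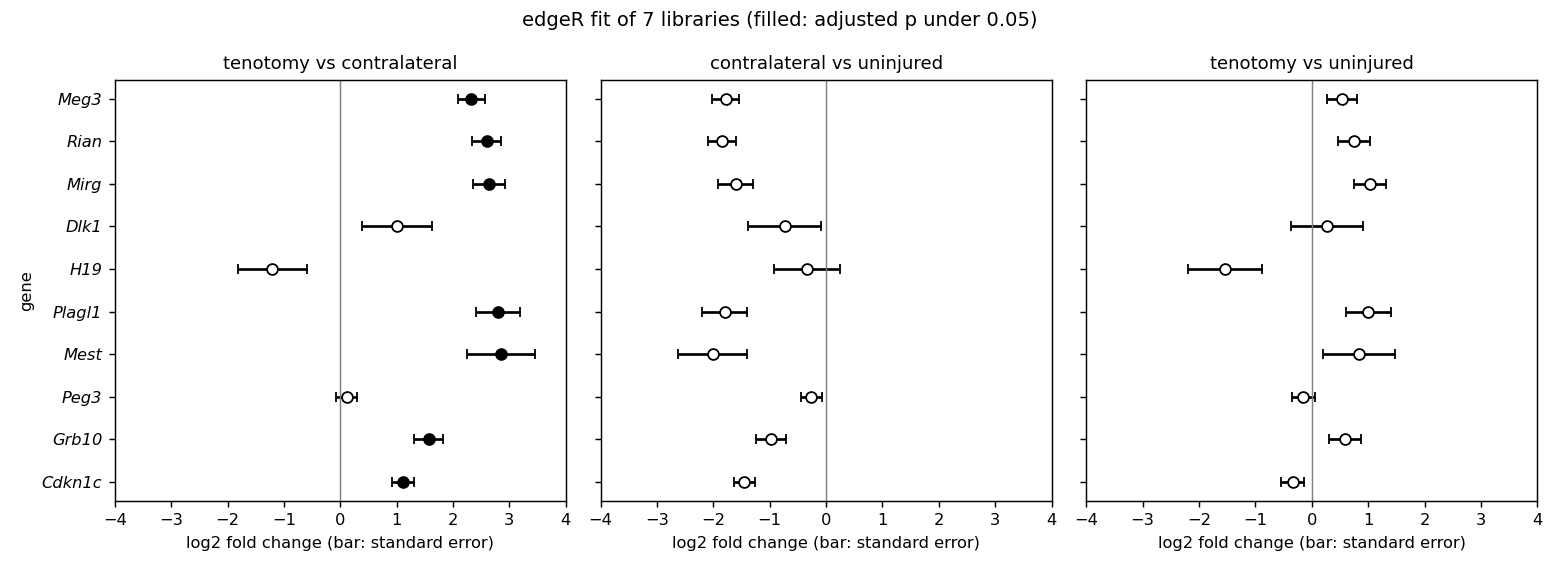
Log2 fold changes of the 10 genes in the 3 comparisons, from edgeR's fit of all 7 libraries, with standard errors as bars. Filled points have an adjusted p under 0.05. From contralateral to tenotomy 7 points are filled, between 1.11 and 2.85, and none is filled in the comparisons with the uninjured group.

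Between the contralateral and the uninjured group, again none of the 10 genes passed the test and 0% of all genes were called, although 19.2% had an unadjusted p under 0.05. All 10 log2 fold changes were below 0, from −2.01 (Mest, SE 0.614) to −0.26 (Peg3, SE 0.186), with a median of −1.53 against −0.01 for all genes. In 7 genes every contralateral value was below both uninjured values, as in 16.6% of all genes: Meg3, Rian, Mirg, Plagl1, Cdkn1c, Grb10 and Mest. Meg3 had a log2 fold change of −1.78 (SE 0.238, adjusted p = 0.150), Rian −1.85 (SE 0.256, adjusted p = 0.150) and Cdkn1c −1.45 (SE 0.189, adjusted p = 0.150). DESeq2 called 5 of the 10 as lower in the contralateral leg (Meg3, Rian, Plagl1, Cdkn1c and Mest), when it called 1.39% of all genes. Without uninjured replicate 1, edgeR called 4 as lower, H19 (−1.10), Meg3 (−1.38), Rian (−1.32) and Cdkn1c (−1.57), when 0.617% of all genes were called. Mirg (−1.19), Plagl1 (−1.05), Peg3 (−0.505), Grb10 (−0.43), Mest (−0.16) and Dlk1 (−0.12) did not pass. Without uninjured replicate 2 it called 8, when 32% of all genes were. The latter were Meg3 (−2.10), Rian (−2.23), Mirg (−1.94), Plagl1 (−2.31), Cdkn1c (−1.33), Grb10 (−1.38) and Mest (−2.80), which were lower, and H19 (1.45), which was higher, while Dlk1 (−1.16) and Peg3 (0.0348) did not pass. With either uninjured library alone the log2 fold changes of Meg3, Rian and Cdkn1c were below −1.3. Those of Mirg, Plagl1, Grb10, Mest and Dlk1 were also below 0, and those of H19 and Peg3 changed sign. These fits leave 1 uninjured library, which is assumed to vary like the other groups. Their calls therefore do not include the spread between the 2 uninjured libraries. This comparison shares its libraries with the others, so their values are not independent of each other.

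The library numbers in the labels fall into 3 series, whose meaning is not given: the contralateral libraries and tenotomy replicate 1, then tenotomy replicate 2 and uninjured replicate 1, then uninjured replicate 2. Within the first series, tenotomy replicate 1 differed from the contralateral mean in log2 CPM by 2.33 for Meg3, 2.60 for Rian, 2.53 for Mirg, 2.80 for Plagl1, 1.19 for Cdkn1c, 1.56 for Grb10, 2.81 for Mest and −1.14 for H19. The second series has no contralateral library. Across series, tenotomy replicate 2 differed from the same contralateral mean by 2.31, 2.57, 2.51, 2.77, 0.98, 1.55, 2.80 and −1.26 for the same genes in the same order. In this second difference, series and group cannot be told apart. Within the second series, tenotomy replicate 2 minus uninjured replicate 1 was 0.21 for Meg3, 0.35 for Rian, 0.68 for Mirg, 0.48 for Plagl1, −0.32 for Cdkn1c, 0.18 for Grb10, 0.05 for Mest and 0.18 for H19. These are single libraries and give no test.

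Levels of different genes were compared per length, in the TPM that the authors deposited, which are scaled by transcript length. In the contralateral libraries H19 was highest, at 4.19 ± 0.786 TPM (SD, n = 3). Rian (0.752 ± 0.0664 TPM) and Meg3 (0.736 ± 0.218 TPM) came next and their ranges overlap, and Grb10 (0.458 ± 0.128 TPM) overlapped Meg3. Peg3, Mest, Cdkn1c, Plagl1, Mirg and Dlk1 followed, each overlapping the next. At the tenotomy, Meg3 (3.71 ± 0.0807 TPM, SD, n = 2) and Rian (3.45 ± 0.308 TPM) were highest with overlapping ranges, followed by H19 (1.72 ± 0.123 TPM), Grb10 (1.01 ± 0.0512 TPM), Mest (0.832 ± 0.00544 TPM), Plagl1 (0.551 ± 0.0774 TPM) and Mirg (0.328 ± 0.000636 TPM), none of which overlaps the next. Cdkn1c (0.292 ± 0.00771 TPM) and Peg3 (0.275 ± 0.0429 TPM) overlap, and Dlk1 was last. In the uninjured group the wide range of H19, 1.64 to 8.50 TPM, covered Meg3 and Rian.

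The genes nearest in pattern were sought by Euclidean distance of centred log2 CPM over the 7 libraries, among 2083 genes with a mean log2 CPM of at least 3. The nearest to Meg3 were Rian (distance 0.51) and Col1a2 (0.59), which encodes a chain of type I collagen and measured 337 to 469 CPM contralateral, 1852 CPM in both tenotomy libraries, and 1711 and 1489 CPM uninjured. The nearest to H19 were Drp2 (0.68), a dystrophin-related gene of myelinating Schwann cells, and Nnat (0.75), itself an imprinted gene. Nnat measured 19.5, 16.1 and 12.2 CPM contralateral, 5.03 and 5.33 CPM at the tenotomy, and 4.17 and 25.6 CPM uninjured. The nearest to Dlk1 were Sh3bgrl (0.79) and Pcdhgc3 (0.83), a match that rests on 3 to 13 counts of Dlk1. Among the 10 genes, Mirg lay closest to Plagl1 (0.59) and to Meg3 (0.59), although Plagl1 is on another chromosome. H19 lay at least 2.04 from every other gene of the 10, and nearest to Peg3. These distances describe the pattern over 7 libraries that share groups and tissue composition.

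The other imprinted genes were called about as often as genes in general. A list of 50 genes known to be imprinted in some mouse tissue was found for 48 and tested for 33. From contralateral to tenotomy 6 rose, 4 fell and 23 did not pass the test, with a median log2 fold change of 0.12, when 29% of all genes were called, 13.6% as higher and 15.4% as lower. These calls also ended without any 1 contralateral or tenotomy library. With only the 2 groups in the fit 9 rose and 10 fell, when 46.1% of all genes were called. Of those that rose with a mean log2 CPM of at least 0, besides Rtl1, Ndn, a growth suppressor expressed in neurons and fat precursors, had a log2 fold change of 0.89 (SE 0.173, adjusted p = 0.0167) and the tetraspanin gene Cd81 0.63 (SE 0.151, adjusted p = 0.0214). Of those that fell, the amino acid transporter gene Slc38a4 measured 4.57, 4.41 and 9.71 CPM contralateral, 0.870 and 0.767 CPM at the tenotomy, and 1.08 and 4.85 CPM uninjured, a log2 fold change of −2.92 (SE 0.677, adjusted p = 0.0204). Snrpn, a splicing factor gene of the Prader-Willi region, had −2.35 (SE 0.459, adjusted p = 0.0167) and the ubiquitin ligase gene Ube3a −0.61 (SE 0.173, adjusted p = 0.0360). Igf2r, which encodes the receptor that clears IGF2, measured 18.1, 19.4 and 20.3 CPM contralateral, 22.5 and 22.0 CPM at the tenotomy and 21.3 and 18.8 CPM uninjured, with a log2 fold change of 0.21 (SE 0.150, adjusted p = 0.333). Against the uninjured group none of the 33 passed in either comparison. Without uninjured replicate 1, 12 were called between tenotomy and uninjured (25.1% of all genes) and 1 between contralateral and uninjured (0.617%). Without uninjured replicate 2, these counts were 0 (0.083%) and 12 (32%).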

How the data were processed

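RNA of 7 libraries of mouse hindlimb tendon was quantified by the authors, who name FastQC 0.11.4 and kallisto in the submitters' processing notes. These notes give the build as GRCh38, a human name, although the transcript IDs in the files are mouse IDs. Per the file headers, the authors deposited for each of 103639 transcripts an estimated count, which is not normalized, and TPM, which is scaled by effective length. Here, 101510 transcripts were assigned to genes of GENCODE M21 (GRCm38), and the deposited estimated counts were summed per gene and rounded. Low genes were removed with filterByExpr (minimum count 10), and scaling was by TMM in edgeR 4.0.16 (R 4.3.3). CPM values are TMM-scaled counts, and for log2 CPM 2 counts were added as a prior. Groups were compared by the quasi-likelihood test of edgeR, with all libraries in a single fit of 3 group means. Benjamini-Hochberg adjustment ran over all genes tested, and calls were made below 0.05. SE, the standard error, is the log2 fold change divided by the root of F.

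In simulated counts of 16028 genes, 200 were changed by a log2 fold of 2 from contralateral to tenotomy. These were drawn above a minimum mean CPM, which Dlk1 does not reach. The test called 180 of the 200 and 9 others. Far fewer genes were changed than the 29% called in the data, and no split between the uninjured libraries was simulated. The simulation therefore does not give the recovery for the 10 genes. The genes and lists were chosen with earlier results of these data known. All 10 genes are named, with Igf2, Igf2r and, of the other imprinted genes called from contralateral to tenotomy, up to 4 rises and 4 falls with a mean log2 CPM of at least 0. Nothing says that libraries come from separate mice, so p-values measure the spread between libraries. Alternatives used DESeq2 1.42.0, limma 3.58.1, other scalings and filters, and fits without each library.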

Additional observations from a re-analysis of the deposited data

How the results depend on the processing

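With 2 or 3 libraries a group and 4934057 to 8375626 informative counts each, Dlk1 (3 to 13 counts) and the contralateral values of Mirg (13 to 19) are limited by depth. No paired analysis was possible because the labels number no replicates within groups and do not say which legs came from the same mouse; the replicate numbers used here only name libraries. The 7 calls of the 10 genes from contralateral to tenotomy became 0 at an adjusted p threshold of 0.01, and 0 without any 1 contralateral or tenotomy library, in both cases with 0% of all genes called. Without 1 library they ranged from 0 to 8. The other imprinted genes, 10 called, came to 4 when tested against a 1.5-fold change (9.76% of all genes), 0 at the threshold of 0.01, 19 with only the groups compared (46.1%) and 16 with the library number series as a covariate (34.8%), and ranged from 0 to 19 without 1 library. From uninjured to tenotomy the counts, 0 for both lists, ranged from 0 to 9 for the 10 genes and from 0 to 18 for the others without 1 library, the highest with 36.8% of all genes called. From uninjured to contralateral, also 0, the 10 genes gave 5 with DESeq2 (1.39% of all genes), 6 without a filter on low counts (1.16%) and 8 with the series covariate (15.4%), and the others 1 without a filter and 5 with the covariate. Without 1 library these ranged from 0 to 8 and from 0 to 12, with up to 32% of all genes called. Fits with only the groups compared and 1 library left out, which assume that a lone library varies like the other group, were added after seeing the data. Fits of all groups that leave 1 library in a group make a like assumption. Uninjured replicate 2 is the only library of its series, so the series covariate takes it up wholly. In that fit the uninjured group rests on replicate 1, which is set against the contralateral libraries through the tenotomy libraries. The causes of these changes were not tested.

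Directions turned in few cases, given as log2 fold changes. From contralateral to tenotomy Peg3 was −0.0495 on length-scaled TPM. From uninjured to tenotomy, H19 was 0.18 and Peg3 0.20 with the series covariate, and Dlk1 was −0.18 and Igf2r −0.081 on length-scaled TPM. Without 1 library, H19 ran there from −2.30 to 0.24, Dlk1 from −0.28 to 0.88, Peg3 from −0.39 to 0.145 and Igf2 from −0.61 to 0.0768. With only these groups in the fit and without uninjured replicate 2 the values were 0.24, −0.17, 0.1395 and 0.0765, and Dlk1 was −0.28 without tenotomy replicate 2. From uninjured to contralateral, H19 was 0.18 with limma-voom and 1.33 with the covariate, and Peg3 0.15 with the covariate. Without 1 library, H19 ran there from −1.10 to 1.45, Peg3 from −0.505 to 0.0348 and Igf2r from −0.139 to 0.0374. With only these groups in the fit, H19 was 1.45 and Peg3 0.0379 without uninjured replicate 2, and Igf2r was 0.0186 without uninjured replicate 1.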
